A study of Mus musculus with 16 samples.

Results

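CD8 thymocytes from mice labelled as conditional knockouts of the gene Tox4 were compared with control CD8 thymocytes. The comparison covers every gene of the CD8 count table, with no choice among the genes: 24974 genes, of 24984 in the series, measured in 10 of the 16 samples. The study measured polyadenylated RNA by strand-specific sequencing in T cell precursors of the mouse thymus. Besides the CD8 samples it holds 3 control and 3 knockout samples of CD4+CD8+ double-positive (DP) thymocytes, which are used here only to ask where the CD8 change differs. The 5 control CD8 samples (Ctrl in the table) came from Tox4;F/F mice, whose Tox4 alleles carry loxP sites around exons 4 to 6, and the 5 conditional knockout samples (cKO) came from Tox4;F/F mice that also carry Lck-cre. The mice were on a C57BL/6 background, 6 to 8 weeks old and littermates matched for gender, and the cells were sorted as positive for TCRβ and CD8. In these mice Cre is driven by the proximal promoter of Lck, so recombination starts in early thymocytes, before the DP stage, and the cells sorted had lived through the earlier stages under that genotype. Wherever controls are named, they too carry the floxed alleles but not the Cre.

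Tox4 is a DNA-binding protein of the HMG-box family that forms a complex with the phosphatase PP1, its targeting subunit PNUTS (gene Ppp1r10) and Wdr82, and this complex acts on RNA polymerase II during elongation and at the ends of genes. In the thymus, DP cells rearrange their T cell receptor α genes, and those with a useful receptor are selected and become CD4 or CD8 single-positive cells. As they mature, CD8 cells keep Cd8a, Cd8b1 and Runx3, shut down Cd4, Rag1 and Rag2, and switch on genes of survival and thymic exit such as Klf2 and the Gimap GTPases.

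Each library held between 8514135 and 13530783 counted fragments, and gene levels are given as CPM, counts scaled to the depth of the library, or, where genes are compared with each other, as TPM, which also divides by gene length. At these depths 11227 genes had enough counts to test. Another 13747 were not tested, and 5100 of those had no count in any CD8 library. In bulk RNA, fewer cells of a type and less RNA per cell cannot be told apart, which holds for every level reported here.

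The floxed gene comes first. In the control libraries numbered 1 to 5, Tox4 stood at 197, 188, 200, 201 and 178 CPM, and in the cKO libraries at 169, 185, 176, 234 and 164 CPM. The cKO values lie across the control range, with the library labelled cKO replicate 4 above every control, and the log2 fold change was -0.06 (SE 0.10, n = 5 against 5, edgeR adjusted p = 0.979, and 0.878 with replicate number as a block). In the reference transcript Tox4-201, exons 4 to 6 make up 735 of 5350 exonic bases, or 13.7%, if the study numbers its exons as that transcript does, which was not checked. A count over the whole gene therefore hardly checks the genotype labels, and no coverage by exon was among the files.

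The sort was checked against marker genes. All 14 CD8 T cell markers were tested, none passed at an adjusted p under 0.05 in either fit, and their summed level was 14100 to 19600 TPM in controls and 14000 to 16100 TPM in cKO. Cd8a lay between 1450 and 1610 CPM in controls and 1300 and 1570 CPM in cKO, and Runx3, the transcription factor of the CD8 lineage, between 540 and 648 CPM in all libraries. Erythroid markers were near 0: none of 8 could be tested, 4 globin genes had no count in any library, and the highest sum was 2.0 TPM, in control 1. Thymic epithelial and stromal markers summed to 234 to 358 TPM, nearly all of it Pecam1 (224 TPM on average) and Ly75, which T cells also express, while Krt5, Krt8 and Psmb11 stayed under 1 TPM on average. B cell markers summed to 76.2 TPM in control 1 and 23.5 to 62.1 TPM elsewhere, with Cd79b the most abundant at 20.4 TPM.

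Among the most variable genes, libraries stood apart more by replicate number than by genotype, though both showed. Cd4 stood at 60.9 to 76.4 CPM in the 4 libraries numbered 1 and 2 and at 3.58 to 10.2 CPM in the 6 numbered 3, 4 and 5, Rag1 at 76.9 to 120 against 11.8 to 34.1 CPM, and Rag2 at 4.85 to 9.35 against 0.367 to 1.1 CPM. Of 16 DP stage genes tested, 12 were higher in all 4 libraries numbered 1 and 2 than in every other library. The share of all tested genes that did so was not counted, so this does not set the list apart from other genes. Cd8a did not follow the numbers, with 1300 to 1540 against 1360 to 1610 CPM. On the 500 most variable genes, the first principal component (42.1% of the variance) set numbers 1 and 2 against 3 and 4 with 5 between them, and the second (14.8%) placed the 5 controls between 0.97 and 15.74 and the 5 cKO libraries between -11.55 and -4.94. Across the tested genes, 477 had a standard deviation over 0.5 log2 units between the means of equal numbers, and 613 had a genotype difference over 0.5. A standard deviation and a difference are unlike measures, so these counts do not rank the sources.

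The sex of the mice followed the numbers too. Xist, the RNA of the inactive X chromosome, was at 3296 to 5058 CPM in the 6 libraries numbered 1, 2 and 5 and under 1 CPM in both controls and in cKO 3 of the numbers 3 and 4, whose libraries carried the Y-linked gene Ddx3y at 98.4 to 156.9 CPM. The library labelled cKO replicate 4 held both, with Xist at 29.06 CPM (251 fragments) and Ddx3y at 98.4 CPM. Library control 1 had 17741 genes with a count, against 13708 to 15054 in the other libraries.

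**Figure D1:**
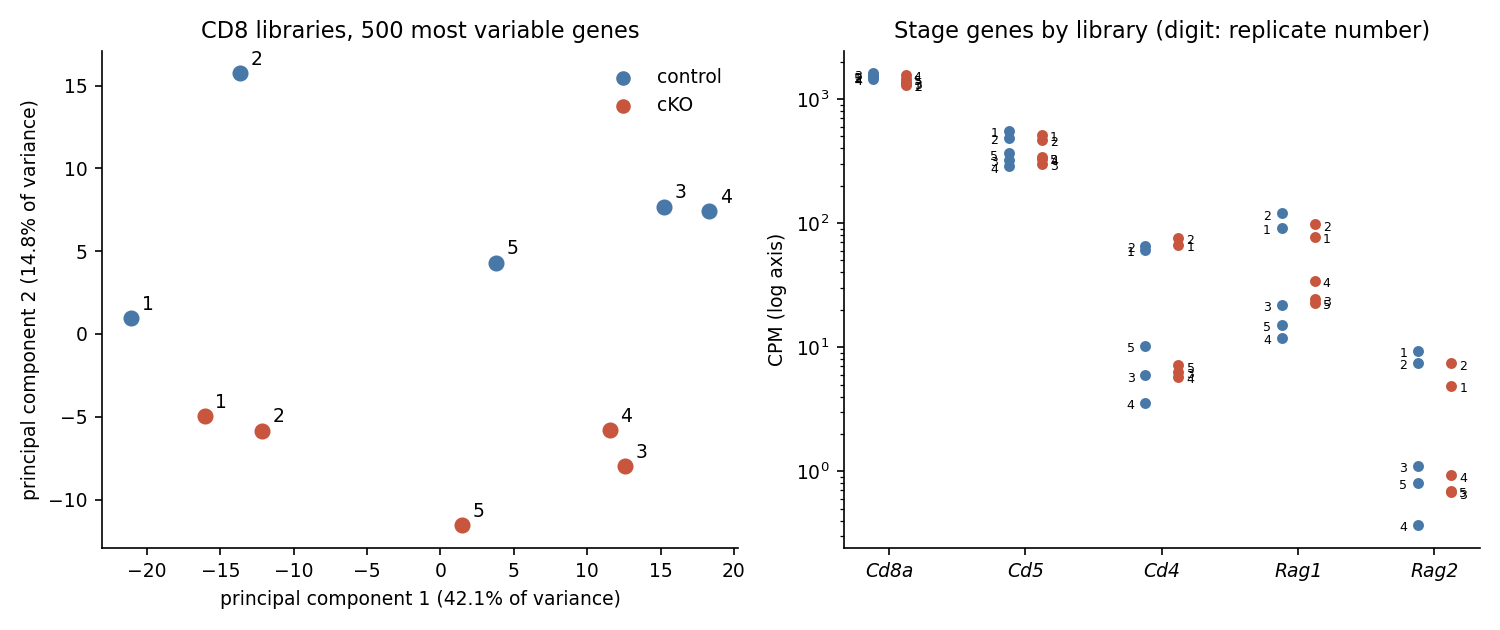
Left: the 10 CD8 libraries on the first 2 principal components of log2 CPM over the 500 most variable genes, blue for control, red for cKO, with replicate numbers beside the points. Right: CPM on a log axis of 5 genes of T cell stages in each library; Cd4, Rag1 and Rag2 separate numbers 1 and 2 from 3, 4 and 5 in both genotypes, and Cd8a does not.

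Equal numbers were therefore used as pairs beside the fit without them. A control and a cKO library of equal number correlated, in their deviation from their genotype's mean over genes, at 0.365, 0.299, 0.318, 0.313 and 0.091 for numbers 1 to 5, on average 0.277 against -0.072 for unequal numbers, and 5 of the 10 libraries correlated best with the other genotype's library of their own number. Number 5 falls short of a pair by this measure, so the fit without pairs comes first, and for named genes with a printed adjusted p the value with replicate number as a block follows. Intervals and list medians are from the fit without pairs. For Tox4 itself the block changed the log2 fold change from -0.06 to -0.07 (SE 0.08).

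Few genes were called between cKO and control CD8 thymocytes. Counting a gene as called when its edgeR adjusted p was under 0.05, its fold change at least 1.5 and its mean at least 1 TPM, 10 of 11227 genes were higher in cKO (0.0891%) and 1 was lower (0.00891%). The higher genes were Tspoap1, F13a1, Cd163l1, Fbxl22, Sh2d4b, Psrc1, Nfia, Slx1b, Dync2h1 and Ntrk3, and the lower gene was Abca7. With adjusted p alone 12 genes passed (0.107%), the added one being Gimap4, which was lower by less than 1.5-fold. With the replicate block 25 genes were called higher (0.223%) and 6 lower (0.0534%), and 44 passed on adjusted p alone (0.392%). All 11 genes of the first fit were among those 31. DESeq2 called 41 higher and 12 lower, again including the same 11. The called genes were mostly minor transcripts: 9 of the 10 higher genes had a mean over the 10 libraries under 24.3 TPM, in the lower part of the tested genes, whose median was 35.2 TPM.

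**Figure D2:**
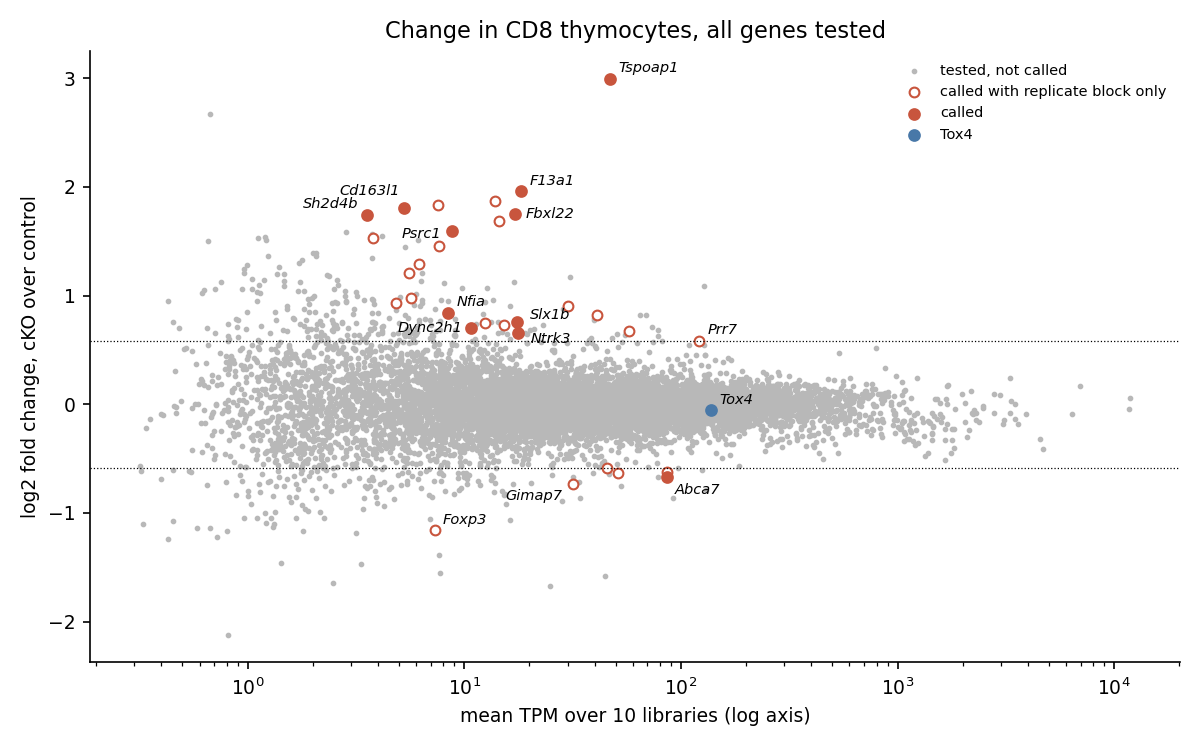
Each point is one of the 11227 tested genes, with its mean TPM over 10 libraries on a log axis and its log2 fold change of cKO over control. Filled red points are the 11 called genes, open red points the genes called only with the replicate block, blue is Tox4, and the dotted lines mark 1.5-fold; most called genes are higher in cKO and lie left of 100 TPM.

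Tspoap1, whose product is a scaffold protein named for its binding to the mitochondrial protein TSPO, showed the largest change among the called genes. It stood at 25.4, 26.3, 23.6, 20.1 and 24.6 CPM in controls 1 to 5 and at 184, 167, 260, 108 and 242 CPM in cKO 1 to 5. Every cKO library was above every control, the lowest being the library labelled cKO replicate 4. The mean rose from 24.0 CPM (SD 2.41, n = 5) to 192 CPM (SD 60.8, n = 5), a fold change of 7.99 and a log2 fold change of 2.998 (SE 0.19, adjusted p = 3.92e-06, and with the block 2.94, SE 0.13, adjusted p = 8.08e-09). An exact two-sided permutation test over the 252 ways to split the libraries gave p = 0.00794, the smallest that 5 against 5 can give. Any gene whose groups do not overlap gives this value, so it adds nothing to the separation itself. Of all genes tested, 96 had every cKO above every control and 72 had every cKO below. The gene lies on chromosome 11 at 87760541 to 87785928 (mm10, plus strand).

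F13a1 encodes the A subunit of coagulation factor XIII, a transglutaminase that cross-links fibrin and is best known from platelets and monocytes. Controls 1 to 5 had 9.57, 17.7, 6.71, 4.68 and 5.83 CPM, and cKO 1 to 5 had 35.8, 41.7, 35.0, 28.8 and 31.4 CPM. The groups did not overlap, and control 2 was the highest control as cKO 2 was the highest cKO. The log2 fold change was 1.96 (SE 0.28, adjusted p = 0.00984), and 2.07 with the block (SE 0.18, adjusted p = 4.65e-05). Without control 3 or without control 5 the fit without pairs no longer called it. F13a1 was on the list of myeloid and dendritic cell markers, of which 10 of 20 could be tested and none of the others passed in either fit. That list summed to 313 to 467 TPM in controls and 348 to 437 TPM in cKO, led by Ctss (151 TPM), with Lyz2, Csf1r, C1qa and Adgre1 too low to test and S100a9 at 0 in all libraries. The median over the 10 tested was 0.03, and 0.39 without control 1. Of the 10 tested, 5 had a positive and 5 a negative log2 fold change. The markers Itgax and Cd68 were higher in all 5 pairs, by log2 fold changes of 1.21 (SE 0.54, edgeR adjusted p = 0.869, and 0.499 with the block) and 0.52 (SE 0.20, adjusted p = 0.753, and 0.297 with the block). Of all genes tested, 527 were higher and 487 lower in all 5 pairs (9.03%), the background for each gene so described below. What part other cells had in the F13a1 signal was not tested.

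The other genes called higher have unlike functions. Fbxl22, the substrate adaptor of a ubiquitin ligase, was at 6.24 to 11.8 CPM in controls and 23.4 to 48.9 CPM in cKO (log2 fold change 1.75, SE 0.21, adjusted p = 0.00474, and 0.000308 with the block). Sh2d4b, an adaptor with an SH2 domain, was at 1.41 to 4.68 and 8.39 to 15.9 CPM, with cKO 3 far above the rest (1.75, SE 0.27, adjusted p = 0.0208, and 0.00502 with the block). Psrc1, a microtubule-binding protein of the mitotic spindle and a target of p53, was at 1.8 to 3.37 and 5.98 to 8.17 CPM (1.59, SE 0.22, adjusted p = 0.00984, and 0.00967 with the block). In none of these genes did a cKO library reach down to a control.

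Nfia and Ntrk3 are 2 of the genes the study names for CD8 thymocytes. Nfia, a transcription factor of the nuclear factor I family, was at 19.1, 20.7, 17.3, 17.4 and 14.3 CPM in controls and at 29.8, 28.6, 32.2, 36.1 and 32.9 CPM in cKO, so that the groups were apart (log2 fold change 0.84, SE 0.12, adjusted p = 0.00984, and 0.0114 with the block). Ntrk3, the receptor tyrosine kinase for neurotrophin-3, was at 19.0 to 24.3 CPM in controls and 29.2 to 38.8 CPM in cKO (0.66, SE 0.12, adjusted p = 0.0477, and 0.035 with the block). Slx1b, the nuclease subunit of a complex that resolves DNA junctions, rose by a log2 fold change of 0.76 (SE 0.12, adjusted p = 0.0208, and 0.0211 with the block), and Dync2h1, the heavy chain of the dynein of cilia, by 0.70 (SE 0.12, adjusted p = 0.0477, and 0.0114 with the block). The calls of Ntrk3, Dync2h1, Slx1b and Sh2d4b rest on many libraries at once: leaving out any of 10, 9, 7 and 5 single libraries ended them, while Psrc1 and Nfia lost theirs only without control 3. Tspoap1, Fbxl22, Cd163l1 and Abca7 stayed called whichever single library was left out. Without both libraries numbered 1, Cd163l1, Nfia, Ntrk3, Slx1b, Dync2h1 and F13a1 lost their calls.

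**Figure D3:**
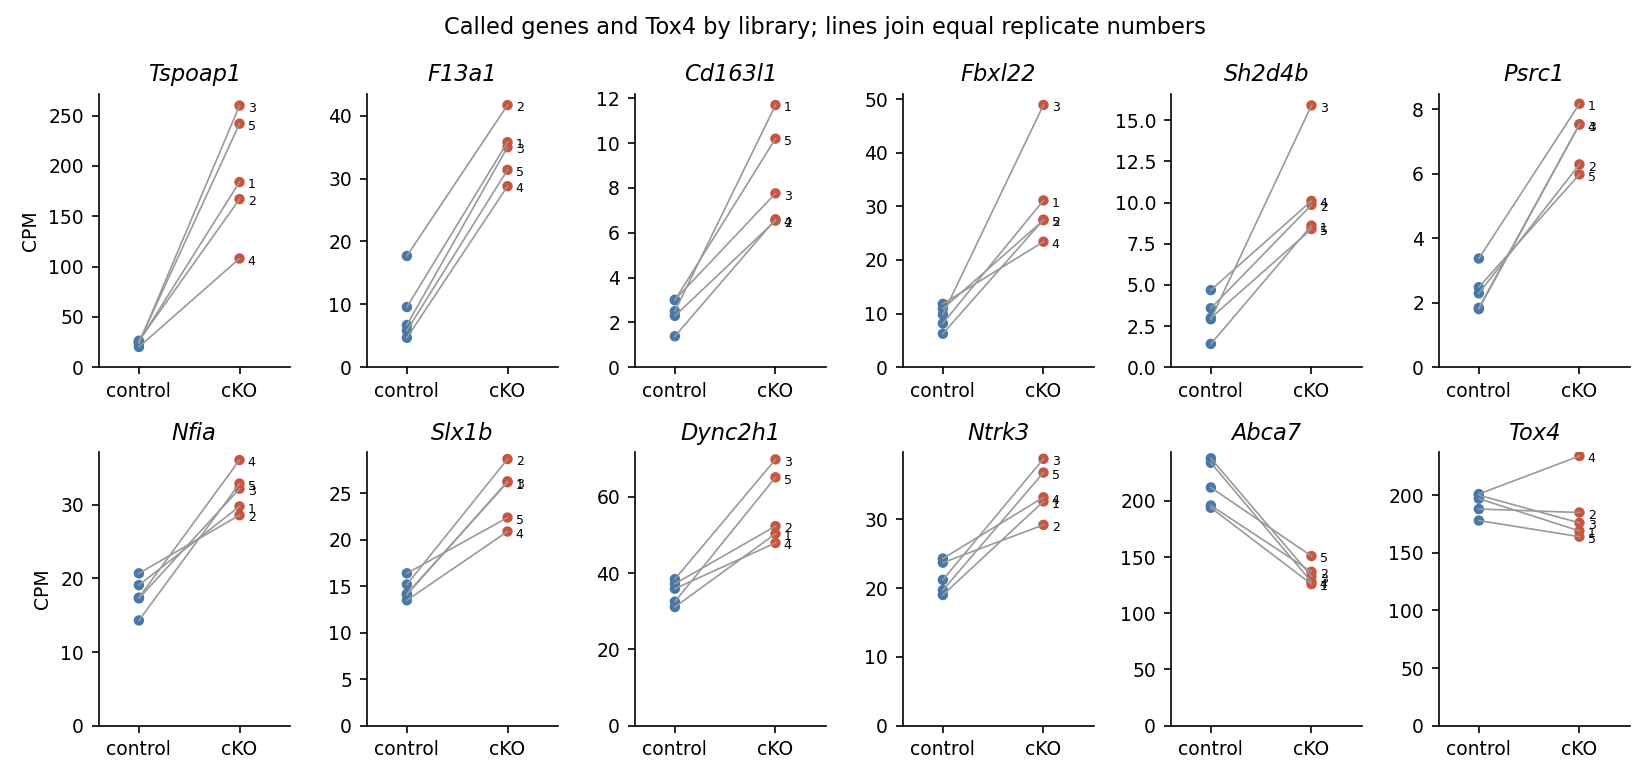
CPM of the 11 called genes and Tox4 in each control (blue) and cKO (red) library, with lines joining equal replicate numbers and digits giving the number. For the called genes all 5 lines run the same way and the groups do not overlap; for Tox4 the line of number 4 runs upward.

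The library labelled cKO replicate 4 stood nearer to the controls than the other cKO libraries for a set of genes. Without it 18 genes were called higher and 2 lower, and for these 20 genes, chosen without its values, it lay beyond all controls on the cKO side for 12, within the control range for 5, and beyond all controls on the opposite side for 3. Without cKO 1, 2, 3 or 5 in turn 8, 8, 7 and 9 genes were called, and the library left out lay beyond all controls on the cKO side for every one of them. Rhbdl1, a rhomboid-family gene named here after its values were seen, was at 42.1, 45.8, 47.3 and 39.8 CPM in cKO 1, 2, 3 and 5, at 18.9 CPM in cKO 4 and at 19.6 to 26.3 CPM in controls. Pde1b, a cyclic nucleotide phosphodiesterase chosen in the same way, was at 73.5, 83.2, 102 and 76.7 CPM in those 4 cKO libraries, 50.7 CPM in cKO 4 and 44.2 to 56.4 CPM in controls. For both genes cKO 4 was near or within the control range while the other 4 were above all controls.

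Abca7 was the only gene called lower without pairs. It belongs to the ABC transporters that move phospholipids across membranes. Controls 1 to 5 had 194, 196, 238, 234 and 212 CPM and cKO 1 to 5 had 126, 137, 133, 128 and 151 CPM. Every cKO library lay under every control, and the cKO libraries lay closer together (SD 9.75 CPM, n = 5) than the controls (SD 20.7 CPM, n = 5). The log2 fold change was -0.67 (SE 0.09, adjusted p = 0.00733, and 0.00275 with the block). None of the other 19 ABC lipid transporters tested passed in either fit. Abcg1 and Abca2, the most abundant of them, had log2 fold changes of -0.04 (95% interval -0.25 to 0.17) and 0.07 (-0.11 to 0.25). The largest value of the list was that of Abcg4, 1.15 (0.05 to 2.26, edgeR adjusted p = 0.869, and 0.359 with the block). Abcg4 was higher in all 5 pairs but rare, at 0.1 to 1.65 CPM in controls and 0.787 to 2.12 CPM in cKO. The list's median was 0.02, against -0.01 over all genes tested. With single libraries left out it ran from -0.0464, without control 1, to 0.0702, without control 5.

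The Gimap GTPases, a family of small GTPases of lymphocytes encoded next to each other on chromosome 6 and linked to T cell survival, leaned lower. Gimap4 was at 298, 256, 304, 309 and 310 CPM in controls and 203, 192, 207, 220 and 218 CPM in cKO, with no overlap and the low control 2 still above the highest cKO (log2 fold change -0.51, SE 0.08, adjusted p = 0.0208, and 0.00967 with the block). Gimap7 was at 14.4 to 16.8 and 7.47 to 11.6 CPM (-0.73, SE 0.14, adjusted p = 0.0973, and 0.048 with the block), and Gimap3 at 356 to 521 and 273 to 317 CPM (-0.45, SE 0.11, adjusted p = 0.169, and 0.0372 with the block). Their groups did not overlap either. Of all 11227 genes tested, 72 had every cKO below every control and 96 had every cKO above. The other 5 members passed in neither fit: Gimap1 had a log2 fold change of 0.23, Gimap6 of -0.28, and Gimap5, Gimap8 and Gimap9 lay between them. Over the 8 members the median was -0.25 and it was lower in all 5 pairs, from -0.13 in pair 3 to -0.47 in pair 4. Left-out single libraries moved it between -0.303 and -0.158, the latter without control 4. The members resemble each other in sequence, so how reads were divided among them is uncertain.

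Promoters were looked at for Abca7, for the Gimap genes past the threshold in either fit, and for Cd163l1, which was among the genes called higher. They were read from RefSeq (GRCm38.p6, the assembly also called mm10) as 250 bases before to 50 bases after the start. Genes with larger changes, such as Foxp3 and F13a1, are not printed. The windows are printed from 5′ to 3′ on the gene's strand with matches to any of 4 motifs in capitals: CCGGAAGT for the ETS family, TGTGGT for the RUNX factors, TATAAA for the box bound by the general factor TBP (called the TATA box below) and CAGCTG for the E box, each on both strands.
Abca7, chr10:79996244-79996543, plus strand: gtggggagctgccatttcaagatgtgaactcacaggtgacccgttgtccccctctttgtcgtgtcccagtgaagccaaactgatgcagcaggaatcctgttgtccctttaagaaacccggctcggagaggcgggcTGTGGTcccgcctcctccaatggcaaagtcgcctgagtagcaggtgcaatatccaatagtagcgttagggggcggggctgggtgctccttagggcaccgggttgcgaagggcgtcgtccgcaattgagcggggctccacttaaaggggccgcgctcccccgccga
Gimap4, chr6:48684328-48684627, plus strand: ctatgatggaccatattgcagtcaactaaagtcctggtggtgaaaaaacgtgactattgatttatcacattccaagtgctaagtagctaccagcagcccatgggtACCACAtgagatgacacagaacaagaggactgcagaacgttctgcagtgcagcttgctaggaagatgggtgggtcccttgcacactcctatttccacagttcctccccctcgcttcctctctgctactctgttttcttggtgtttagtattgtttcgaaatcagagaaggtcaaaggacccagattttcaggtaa
Gimap7, chr6:48718371-48718670, plus strand: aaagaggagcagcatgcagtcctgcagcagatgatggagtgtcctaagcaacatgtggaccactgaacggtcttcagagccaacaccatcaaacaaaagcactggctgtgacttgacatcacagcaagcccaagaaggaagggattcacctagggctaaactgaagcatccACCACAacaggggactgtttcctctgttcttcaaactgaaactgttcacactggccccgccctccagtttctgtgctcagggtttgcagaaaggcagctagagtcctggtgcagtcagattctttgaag
Gimap3, chr6:48770802-48771101, minus strand: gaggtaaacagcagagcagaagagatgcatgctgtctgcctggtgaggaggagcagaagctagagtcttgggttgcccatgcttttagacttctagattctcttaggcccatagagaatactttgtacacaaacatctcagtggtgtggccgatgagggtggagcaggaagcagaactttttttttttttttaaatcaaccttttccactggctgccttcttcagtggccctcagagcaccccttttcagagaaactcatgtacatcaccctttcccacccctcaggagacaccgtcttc
Cd163l1, chr7:140218017-140218316, plus strand: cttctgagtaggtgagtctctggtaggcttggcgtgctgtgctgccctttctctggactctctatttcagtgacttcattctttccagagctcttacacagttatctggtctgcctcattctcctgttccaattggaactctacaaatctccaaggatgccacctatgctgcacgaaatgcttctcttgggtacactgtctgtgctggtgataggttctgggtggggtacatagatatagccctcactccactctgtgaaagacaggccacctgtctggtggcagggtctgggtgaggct

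The RUNX letters occur once each in the windows of Abca7, Gimap4 and Gimap7, starting at base 136, 106 and 172, and none of the 4 motifs occurs in those of Gimap3 and Cd163l1. Chromosome 18 was left out of these counts. Of the 32851 other windows of full length in that table, 16.8% hold the RUNX letters, 3.89% the ETS letters, 13.6% the TATA letters and 16.3% the E box. Of the 31 genes called with the replicate block, which together had log2 fold changes from -1.18 to 2.94 in that fit, 23 had a promoter in the table outside chromosome 18. Of these genes 5 held RUNX, 2 ETS, 2 TATA and 7 the E box in any of their windows. The percentages above count single windows, so they are no background for these counts of genes. Tspoap1 has no entry there under that symbol, and the window of Abca7 lies before the gene start of 79997608 that the count table's annotation gives. A match is only a match of letters, and binding was not measured in these files.

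Genes known from γδ and innate-like T cells were among those higher. Cd163l1, a scavenger receptor of the cysteine-rich family found on γδ T cells, was at 2.5, 2.29, 3.01, 1.38 and 2.99 CPM in controls and 11.7, 6.54, 7.76, 6.6 and 10.2 CPM in cKO (log2 fold change 1.81, SE 0.25, adjusted p = 0.00984, and 0.00275 with the block). Its neighbour 5830411N06Rik, of the same receptor family, was at 2.39 to 7.29 and 6.02 to 22.8 CPM, overlapping through cKO 4 (1.45, SE 0.34, adjusted p = 0.175, and 0.0304 with the block). Sox13, a transcription factor of γδ T cells, was at 2.02 to 7.07 and 7.57 to 14.7 CPM (1.29, SE 0.31, adjusted p = 0.203, and 0.0211 with the block). The list has 16 markers, of which 11 are in the count table and 10 were tested; the constant genes of the γ and δ receptor chains, Tcrg-C1, Tcrg-C4 and Trdc, are not in the table. Of the 7 others tested none passed, and they went both ways: Maf had a log2 fold change of 0.09, Blk of 0.67, Zbtb16 of -0.52, Il17re of -0.36 and Il1r1 of -0.85. The summed level was 103, 106, 63.8, 45.9 and 61.3 TPM in controls 1 to 5 and 130, 108, 76.4, 68.8 and 102 TPM in cKO 1 to 5. The list's median was 0.11, and from 0.0605 to 0.27 with single libraries left out. What share γδ cells had in these libraries was not tested, and the sort took cells positive for TCRβ.

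Pairing by number brought in 20 further genes. In simulated data 8.82% of the genes past adjusted p in the edgeR fit with the block were false, against 2.7% without pairs. Foxp3, the transcription factor of regulatory T cells, was at 20.2, 10.8, 9.42, 7.53 and 12.97 CPM in controls and 8.34, 4.42, 3.94, 3.01 and 7.36 CPM in cKO. The ranges overlapped, since both genotypes were high at number 1 and low at number 4, but each cKO was under the control of its number (log2 fold change -1.16, SE 0.31, adjusted p = 0.277, and -1.18, SE 0.17, adjusted p = 0.00967 with the block). Of 8 CD4 lineage and regulatory T cell markers tested none of the other 7 passed, and they went both ways: Ikzf2 had 0.40, Il2ra 0.29 and Ctla4 0.11, Zbtb7b -0.11 and Cd40lg -0.21, which was -0.44 with the block and lower in 4 of 5 pairs. The remaining lower genes with the block were Oas2, an antiviral enzyme induced by interferon, Gimap7, Prrt2 and Ptov1, besides Abca7. Prr7, a membrane adaptor of T cells, shows what the block does: its controls ran from 13.49 CPM at number 2 to 59.7 at number 4 and its cKO from 30.1 to 90.6, so that the adjusted p was 0.979 without pairs and 0.0416 with the block (log2 fold change 0.68, SE 0.13). Left out one at a time, the pairs gave between 10 called genes, without number 3, and 24, without number 2.

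Position on the chromosome was looked at next, since many called genes had been seen to lie just after another gene, so the shares describe that observation and do not test it. Of 25 genes called higher with the replicate block, 13 (52.0%) start within 10 kb after the end of a tested gene on the same strand, against 18.3% of the tested genes with a position (2049 of 11213), and in the fit without pairs it was 5 of 10. Of the 6 called lower with the block it was 4 (66.7%). The share over all tested genes was not matched for level. Fbxl22 starts 46 bases after Usp3, Tspoap1 3614 bases after Mir142, Slc3a1 4355 bases after Ppm1b, Sh2d4b 4754 bases after Tspan14 and Eno3 5762 bases after Rnf167. In 12 of the 13 cases the gene itself was the less abundant, with a median of 17.2 TPM against 365 TPM for the gene before it. None of the 17 neighbours, those of lower genes included, passed at an adjusted p under 0.05 in either fit, and the median log2 fold change of the 13 was 0.05. Usp3 had 0.28 (adjusted p = 0.483, and 0.306 with the block), Mir142 -0.40 (0.869 and 0.279) and Rnf167 -0.38 (0.253 and 0.0688). The lower gene Abca7 likewise starts 2208 bases after Cnn2, which had -0.05. Of the 31 genes, 4 higher and 2 lower lie on chromosome 7 and no other chromosome holds more than 4. Whether reads run from one gene into the next cannot be read from gene counts.

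Apart from Psrc1, which is on none of the lists, cell cycle genes were not called by edgeR. Cdkn1a, which encodes the cell cycle inhibitor p21 and is named by the study, was at 1.74, 0.642, 0.702, 2.02 and 1.46 CPM in controls and 4.68, 3.15, 4.16, 3.82 and 3.56 CPM in cKO. Every cKO was above every control, yet the counts are low and the log2 fold change of 1.55 (SE 0.33) had an adjusted p of 0.126, and 0.0527 with the block. DESeq2 gave 0.00252 and called it. The other tested inhibitors, Cdkn1b, Cdkn2c and Cdkn2d, had -0.24, 0.25 and -0.03. Of 45 mitosis and cytokinesis genes none passed in either edgeR fit, and 38 had a positive log2 fold change with a median of 0.14, which was largest in pairs 1 and 4 (pair medians of 0.60, 0.04, -0.06, 0.35 and -0.11). Without single libraries that median ranged from 0.04 to 0.22. DNA replication genes (41 tested, median 0.08), D cyclins with Cdk4/6 and Rb-E2F genes (21, median 0.11) and the 22 proliferation genes that the study scores (median 0.10), which it chose and which are no independent evidence, gave none past the threshold either. Without control 1 the medians of the DNA replication list and the study's list were -0.000543 and 0.00172. Control 1 had the lowest summed level of the mitosis genes, 1320 TPM, against 1680 to 2120 TPM in the other libraries.

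The lists of p53 targets and of cell death had no gene past the threshold in either edgeR fit. Among 25 tested genes of p53 and its targets, a list without Psrc1, the median was 0.15. Phlda3, a p53 target that restrains Akt, had the largest value with 0.367 to 0.979 CPM in controls and 1.39 to 2.47 CPM in cKO (log2 fold change 1.59, SE 0.37, adjusted p = 0.161, and 0.146 with the block, DESeq2 0.0374), and Trp53 itself stood at -0.01 (95% interval -0.28 to 0.26). Of 14 Bcl2 family genes none passed: Bcl2 had 0.11 and Mcl1, the most abundant, -0.27 (-0.48 to -0.05, adjusted p = 0.751, and 0.267 with the block), lower in all 5 pairs. The largest value there was that of Bcl2l2, 0.66 (0.16 to 1.15, edgeR adjusted p = 0.621, and 0.348 with the block), higher in all 5 pairs. Of 30 caspase and death receptor genes none passed, and 26 had a 95% interval that lay within 1.5-fold on both sides, 27 with the block, with Casp8 at -0.01 (-0.25 to 0.22).

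That last measure shows what stayed stable, since a p that misses a threshold does not. A gene is called bounded here when the 95% interval of its log2 fold change lies within 0.585 of 0 on both sides, the log2 of 1.5-fold. Over all genes tested 69.2% were bounded (7773 genes), and 72.8% with the replicate block (8168 genes). The share follows the level: 12.9% of the least abundant of 5 equal classes (up to 9.09 TPM), 63.7%, 85.6% and 92.7% of the next, and 91.4% of the most abundant. The median log2 fold change in those classes lay between -0.014 and 0.004. Without adjustment, 344 genes were higher and 285 lower at an unadjusted p under 0.05, which is 629 of 11227 where 5% would be chance. With the replicate block it was 522 higher and 461 lower, 983 in all.

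The listed genes of proximal T cell receptor signalling were stable, which does not extend to the receptor response genes given below. All 42 genes tested, from the CD3 chains through Lck, Zap70 and Lat to the NFAT factors, were bounded in both fits, with a median of 0.04. Zap70 had -0.02 (95% interval -0.21 to 0.16), Lck 0.01 (-0.16 to 0.17), and Cd3g the largest change with -0.32 (-0.58 to -0.06). Of the CD8 T cell markers 14 of 14 were bounded in both fits, with Cd8a at -0.13 (-0.32 to 0.05) and Runx3 at 0.00 (-0.17 to 0.17). Transcription factors of the CD4 and CD8 lineages, 28 tested, had a median of 0.01 and 21 were bounded, 25 with the block. Tcf7 and Lef1, the most abundant, had -0.09 (-0.50 to 0.31) and 0.05 (-0.26 to 0.35), and Batf, an AP-1 factor, had the largest value with -0.86 (SE 0.30, adjusted p = 0.621, and 0.202 with the block). Ets1 was above all controls in every cKO, at 1960 to 2180 against 1530 to 1940 CPM, and at 0.24 (0.05 to 0.44) was both bounded and short of the test (adjusted p = 0.70, and 0.331 with the block).

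For the stage genes, the spread by replicate number set the precision. The DP stage genes had a median of 0.07 over 16 tested and none passed, but 9 were bounded without pairs and 12 with the block. Cd4 had an interval of -1.62 to 1.98 without pairs, and its log2 fold change with the block was 0.11 (SE 0.14, adjusted p = 0.884). Of 19 genes of single-positive maturation and exit, 12 were bounded without pairs and 18 with the block. Klf2, which drives exit genes, had -0.21 (SE 0.39) and -0.24 with the block (adjusted p = 0.499). Of 27 chemokine receptor and migration genes 18 were bounded, 22 with the block, with a median of 0.08. Of 38 immediate early and receptor response genes none passed, though 15 were bounded without pairs and 32 with the block. Fosb had the largest value there, 1.18 (SE 0.37, edgeR adjusted p = 0.483, and 0.13 with the block), with 112.5 CPM in cKO 4, 23.9 to 39.3 CPM in the other cKO libraries and 13.7 to 38.7 CPM in controls. With the block Fosb was called without pair 1 and Fos without pair 3.

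Among genes of the machinery in which Tox4 acts, none passed edgeR over all libraries without pairs and 1 passed with the block. Ppp1r10, the PNUTS gene of the Tox4 complex, was at 155, 139, 113, 114 and 122 CPM in controls and 195, 196, 214, 169 and 163 CPM in cKO. All cKO were above all controls, by a log2 fold change of 0.54 (SE 0.11, adjusted p = 0.0973) and of 0.55 with the block (SE 0.09, adjusted p = 0.0203), under the 1.5-fold line. It was called without control 1 (0.62, edgeR adjusted p = 0.0365) and, with the block, without pair 1. Its partners Wdr82, Ppp1ca, Ppp1cb and Ppp1cc had 0.09, 0.07, 0.16 and 0.06 and all were bounded in both fits. Of the related Tox genes, Tox had -0.04 and Tox2 0.69, whose controls ran from 4.77 to 33.1 CPM with the numbers (SE 0.59, adjusted p = 0.979, and 0.0885 with the block). Among 37 genes of RNA polymerase II pausing, elongation and termination none passed and 35 were bounded in each fit, with a median of -0.01. The largest value there was that of Supt4a, a gene of the elongation factor DSIF, at 46.5 to 78.1 CPM in controls and 36.3 to 46.9 CPM in cKO and lower in all 5 pairs (-0.57, SE 0.13, edgeR adjusted p = 0.161, and 0.0584 with the block, DESeq2 0.0129). Supt4a was called without control 2 and, with the block, without pair 2. Of 12 polymerase II subunits none passed and 8 were bounded in each fit, Polr2a had 0.05 (-0.34 to 0.44), and the largest value was that of the small subunit gene Polr2l with -0.56 (SE 0.23, adjusted p = 0.808, and 0.399 with the block). Of 30 splicing factors 28 were bounded, 29 with the block, and the largest value was that of Hnrnpa1 with -0.30 (SE 0.25, edgeR adjusted p = 0.979, and 0.681 with the block).

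No listed gene of the ribosome or of respiration passed, and the medians of both lists rested mostly on pair 5. Of 80 cytosolic ribosomal protein genes 75 had a negative log2 fold change with a median of -0.22, but none passed in either fit. The pair medians were 0.14, 0.11, -0.09, -0.30 and -1.24, so that pair 5 gave most of it. The summed level was 49100 TPM in cKO 5 and 73600 to 104000 TPM in the other 9 libraries, and the list's median ranged from -0.33 to -0.06 when single libraries were left out. The 78 oxidative phosphorylation genes had a median of -0.10 with 59 negative, none passed, and pair 5 again stood apart with -0.74 against -0.14 to 0.19 in the others. Left-out libraries moved that median between -0.163 and -0.00109, the latter without cKO 5. Ribosomal protein genes have many processed copies in the genome, so their counts are uncertain as the counting could split them. Of 37 proteasome subunits tested, 37 were bounded without pairs and 35 with the block, with a median of -0.03 and of -0.347 in pair 5, and glycolysis enzymes (20 tested, median 0.02) held 1 gene past the threshold with the block, Eno3, the muscle-type enolase, at 11.9 to 18.4 and 14.2 to 35.8 CPM (0.82, SE 0.20, adjusted p = 0.208, and 0.0304 with the block). Its abundant relative Eno1 had -0.02 (-0.31 to 0.27).

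Heat shock and unfolded protein response genes, 27 tested, had a median of -0.18, with pair medians of -0.015, -0.162, -0.01, -0.337 and -0.512, and of -0.109 without cKO 5. None passed in either edgeR fit. DESeq2 called Hspe1, the gene of the mitochondrial chaperonin Hsp10, at 29.5 to 50.8 CPM in controls and 13.6 to 29.5 CPM in cKO (log2 fold change -0.79, SE 0.20, edgeR adjusted p = 0.264, and 0.0777 with the block, DESeq2 0.0322). The fit with the block called Hspe1, Hspa1a and Hspa1b when pair 3 was left out. Hspa8 and Hsp90ab1, constitutive chaperones and the most abundant of the list, had -0.18 (95% interval -0.51 to 0.14) and -0.24 (-0.53 to 0.05). Hspa1a, the inducible Hsp70 gene, was at 3.7 to 96.7 CPM in controls and 1.61 to 33.2 CPM in cKO, with control 4 the highest (log2 fold change -1.68, SE 0.75, adjusted p = 0.877, and 0.232 with the block).

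In the remaining lists, of immune response, other pathways and other cells, Oas2 alone passed edgeR, and only with the block. Of 44 interferon response genes 35 were bounded, 38 with the block, with a median of -0.02. Oas2 was the member past the threshold with the block, at 169, 104, 101, 114 and 148 CPM in controls and 101, 98.7, 75.2, 56.8 and 80.1 CPM in cKO, lower in all 5 pairs although the ranges touch (-0.62, SE 0.17, adjusted p = 0.321, and 0.035 with the block). MHC class I genes (21 tested, 19 bounded and 20 with the block, median -0.01), cytokine receptor and Jak-Stat genes (35, 29 bounded and 31 with the block, -0.03), NF-kB genes (21, 18 bounded and 21 with the block, -0.03), Notch pathway genes (20, 14 bounded and 16 with the block, 0.05), V(D)J recombination and DNA damage response genes (29, 22 bounded in each fit, 0.02) and cholesterol genes (26, 18 bounded and 20 with the block, 0.05) had no gene past the threshold in either fit. Myc had -0.10 (-0.42 to 0.22) and B2m -0.09 (-0.43 to 0.25). Of NK and cytotoxic markers 14 of 18 were tested, none passed, 4 were bounded and 5 with the block, and the median was 0.06 (0.27 without control 1). They summed to 1090 to 1450 TPM in controls and 1100 to 1690 TPM in cKO, with Il2rb and Nkg7 the most abundant. In all 5 pairs the sum was higher in cKO, from 1090 against 1100 TPM in pair 2 to 1450 against 1690 TPM in pair 4. B cell markers, 6 tested and 0 bounded in either fit, had a median of 0.17 (0.56 without control 1), and thymic epithelial and stromal markers, 6 tested and 2 bounded in each fit, of 0.04, with no gene past the threshold in either.

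**Figure D4:**
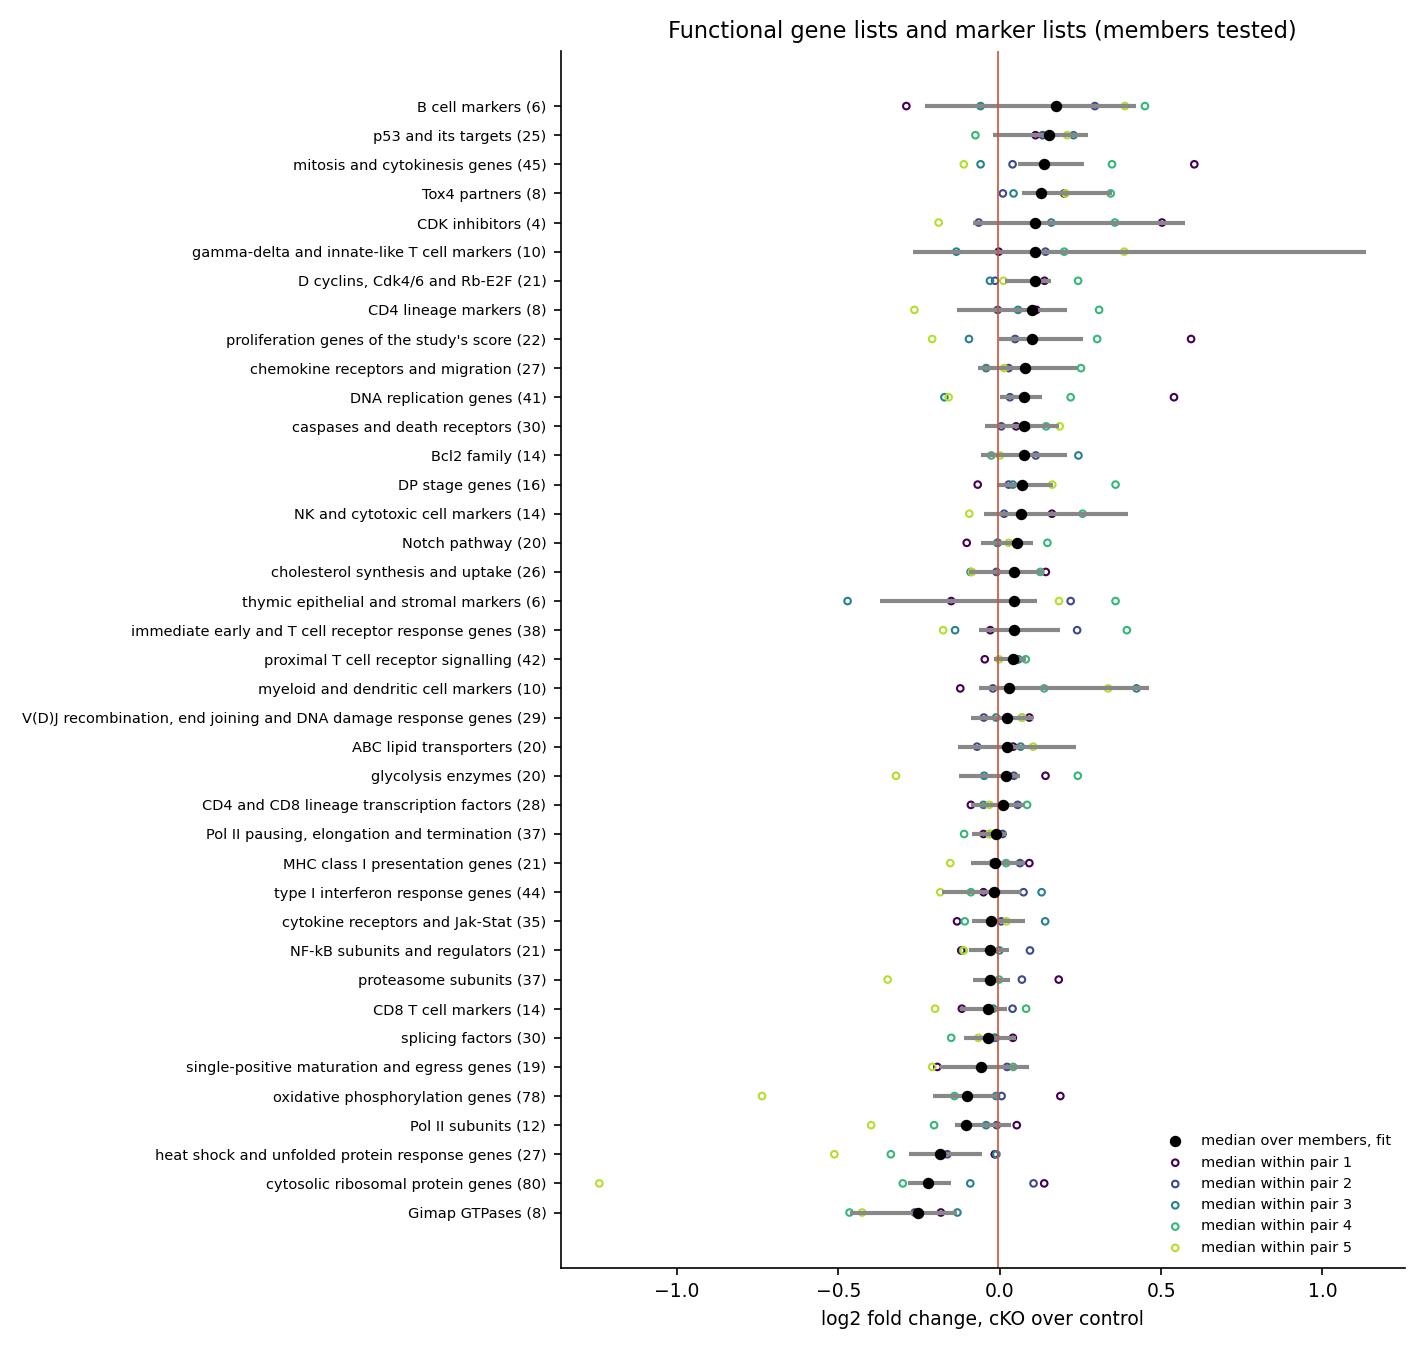
Log2 fold change of cKO over control for each gene list with at least 4 tested members, whose number stands in brackets. Black points are medians over members, grey bars run between the quartiles, open circles are the medians within each pair of equal replicate numbers, and the vertical line is the median of all tested genes (-0.006); the Gimap list is lowest and pair 5 of the ribosomal protein genes lies farthest out.

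The DP table shows which of these changes differ between the stages. The difference of the CD8 and DP changes was tested in 1 model over all 16 samples: 13 of 12131 genes passed (0.107%), and 33 with the replicate block (0.272%), among them all 13. Of the genes called in CD8 cells only F13a1 was past this test, with a DP log2 fold change of -0.03 (SE 0.13) and a difference of 1.99 (SE 0.37, adjusted p = 0.0499, and 0.00122 with the block). Gimap4 and Gimap3 differed the other way, with -1.85 and -1.90 in DP cells against -0.51 and -0.45 in CD8 cells, differences of 1.34 (SE 0.20, adjusted p = 0.0181, and 0.0111 with the block) and 1.44 (SE 0.20, adjusted p = 0.014, and 0.00134). The other 10 had larger changes in DP cells, among them Bcl2, with -0.67 in DP against 0.11 in CD8 cells, and Ccnd2, the gene of cyclin D2, with -1.14 against 0.02. The count is fragile, from 2 to 11 genes when a single CD8 library was left out, and no DP library was left out in turn. The cell types also differed in sex. All DP libraries held Ddx3y (1801 to 2886 fragments) with little Xist (4 to 13), unlike the CD8 libraries numbered 1, 2 and 5. What part sex had in these differences was not tested. For Abca7, at -0.01 in DP cells (SE 0.14), the difference was -0.67 (SE 0.17, adjusted p = 0.256, and 0.052 with the block), and for Cd163l1, at -0.25 (SE 0.59), it was 2.06 (SE 0.58, adjusted p = 0.498, and 0.26 with the block). Tspoap1 was higher in both, with 2.49 in DP cells (SE 0.17) and a difference of 0.51 (SE 0.30, adjusted p = 0.95, and 0.488 with the block), and Fbxl22 had 1.76 in DP cells and a difference of -0.02 (SE 0.33, adjusted p = 0.998, and 0.951 with the block).

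**Figure D5:**
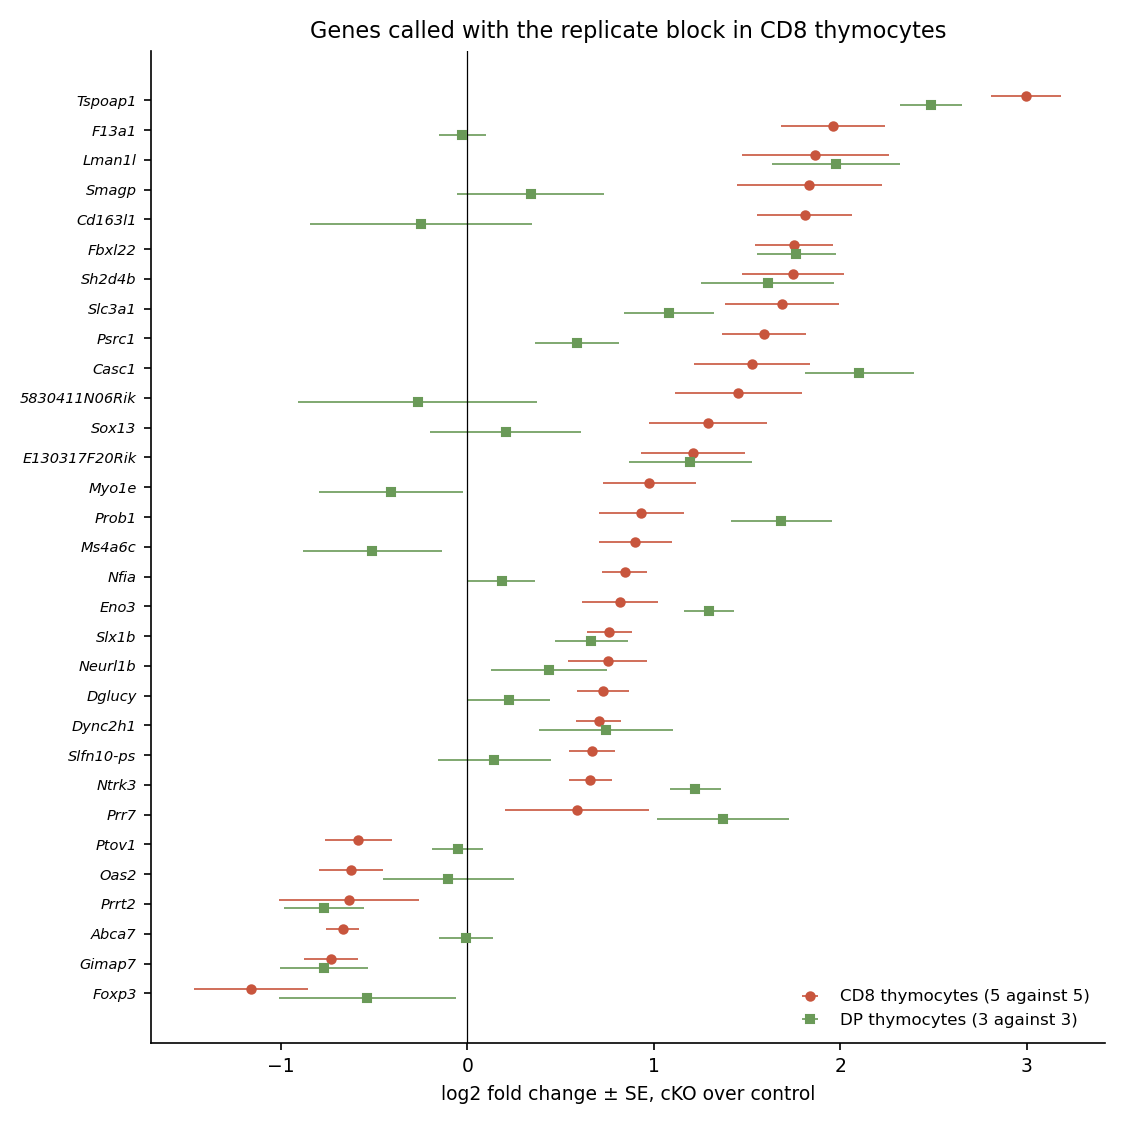
Log2 fold change with its standard error in CD8 thymocytes (red circles, 5 against 5) and DP thymocytes (green squares, 3 against 3) for the 31 genes called with the replicate block in CD8 cells. Tspoap1, Fbxl22 and Sh2d4b lie to the right in both cell types, while F13a1 and Abca7 lie near 0 in DP cells.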

How the data were processed

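RNA of 10 CD8 and 6 DP thymocyte samples was read from the tables of fragment counts that the authors deposited. They trimmed reads with fastp 0.13.1, aligned them to mm10 with HISAT2 2.1.0 and counted fragments per gene with featureCounts 1.6.1; the annotation release is not stated. Counts were not normalised before deposit. TPM used the gene lengths of the DP table.

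cKO and control were compared with edgeR 4.0.16 (R 4.3.3): filterByExpr, TMM factors, quasi-likelihood test, Benjamini-Hochberg adjustment over all 11227 genes, calls at adjusted p under 0.05, 1.5-fold and mean TPM of at least 1. This fit has no block. Replicate number was checked as a pair by correlating deviations from the genotype means (prior count of 2): 4 of 5 exceeded 0.1, number 5 did not (0.091), so the numbers do not fully qualify as pairs. The fit with the block, which called 25 genes higher and 6 lower, is given beside the other throughout. Single genes also had an exact two-sided permutation test on log2 CPM with 0.5 added. The edgeR and DESeq2 fits were tested on simulated data with known changes: without pairs edgeR missed most changes of 1.5-fold, the test of the difference between the cell types found none of them, and the blocked fits made more false calls than the fits without block. Of differences between the cell types of 1 on the log2 scale, that test found 6% without and 35% with the block. Of the genes past adjusted p under 0.05, 8.82% were false for edgeR with the block and 2.7% without. For DESeq2 the shares were 15.7% and 5.37%. Summaries used pandas 2.3.3 and NumPy 2.4.6, figures matplotlib 3.10.9.

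Named genes are Tox4, the genes the study names for CD8 cells (Cdkn1a, Ntrk3, Nfia, Gimap7), all called genes, for each of 40 gene lists the members past the threshold in either fit, the 2 most abundant and the 1 with the largest change, members of the marker lists, the upstream neighbours of called genes, and further list members picked by hand for what they do; others are marked where they appear. Members and lists were chosen with earlier results of these data known. Alternatives were other scaling factors, low-count filters, TPM limits, DESeq2 1.42.0, each library left out, and, chosen after seeing the data, each pair left out of the blocked fit.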

Additional observations from a re-analysis of the deposited data

Results flagged for a closer look

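In 152 groups of 5 libraries, the lowest or highest library was compared with the rest, and in 7 groups it stood far from the other 4, where chance gives about 5%, so their number is no more than chance gives. Control 1 stood apart from the other controls in genes with a count (17741), in the summed level of B cell markers (76.2 TPM) and in that of erythroid markers (2.0 TPM). Control 2 stood low for Gimap4 (256 CPM). Among the cKO libraries, cKO 3 stood high for Sh2d4b (15.9 CPM) and Slc3a1 (26.6 CPM), and cKO 1 for Sox13 (14.7 CPM). The change in CD8 cells differed from that in DP cells for 13 genes in the test of the difference itself, and for 2 to 11 when a single CD8 library was left out. Of the 13, those past adjusted p in CD8 cells without pairs were F13a1 (1.99 on the log2 scale) and Gimap4 (1.34).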

How the results depend on the processing

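The 10 higher and 1 lower calls were the same genes with RLE or upper-quartile factors and with at least 10 counts in every sample. DESeq2 gave 41 and 12 calls, 50 and 22 genes past adjusted p; with the replicate block it gave 50 and 13, 72 and 29. The edgeR fit with the block gave 25 and 6, 33 and 11, and 33 genes whose change differs between the cell types. Without a low-count filter 13 genes were called higher and 1 lower: Lman1l, Slfn10-ps, Smagp and Slc3a1 gained a call and Ntrk3 lost its call. The bounded share was then 40%, since rare genes entered. Without both samples numbered 1, 4 genes were called higher, and 4 higher and 1 lower were past adjusted p. Leaving out single CD8 libraries gave 3 to 18 genes called higher, 1 to 2 lower, 3 to 18 and 1 to 3 past adjusted p, a bounded share of 64.0% to 68.6%, and 2 to 11 genes whose change differs between the cell types. Leaving out single pairs in the fit with the block, which had 25 and 6 calls, gave 6 to 18 higher, 2 to 6 lower, 6 to 21 and 3 to 7 past adjusted p, and a bounded share of 65.3% to 70.0%. Same-number correlation was under 0.1 for number 5.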

Other observations

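Some genes followed single libraries or replicate numbers rather than genotype, and were picked for this after their values were seen. Slc15a2, a peptide transporter gene, was at 0 CPM in control 4, 7.98 CPM in cKO 3 and 13.8 CPM in cKO 4, and at 47.5 to 89.1 CPM in the other 7 libraries. Il17rb, a cytokine receptor gene, was at 72.1, 79.8, 93.3 and 79.0 CPM in the 4 libraries numbered 1 and 2 and at 9.26 to 20.5 CPM in the other 6. Jchain, the immunoglobulin joining chain of plasma cells, was at 24.6 CPM in control 1 and 0.601 to 7.62 CPM elsewhere. Scand1, a gene of a SCAN-domain protein, ran the other way, with 1.09 to 2.55 CPM at numbers 1 and 2 and 7.82 to 27.2 CPM at the others.

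None of the 4 genes passed the genotype test in either fit, with edgeR adjusted p values of 0.998, 0.994, 0.966 and 0.978 without pairs and 0.919, 0.663, 0.722 and 0.692 with the replicate block.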
